A study of Oryza sativa with 20 samples.

Results

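The subject is a set of 46 miRNA tags from the rice leaf. Their level at stage S5, set against S1, changed at least 2-fold in the lamina joint. In the blade none reached 2-fold in the same direction, though some came close. MicroRNAs are short RNAs that load into Argonaute proteins and guide them to matching transcripts; in plants the pairing is close to complete and often leads to cleavage of the transcript. Several conserved plant miRNA families act on transcription factors that pattern leaves and control cell division and growth. The lamina joint is the hinge between sheath and blade, and the growth of its cells bends the blade away from the stem and so sets the leaf angle.

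The members were chosen from the readout. The tags of all 20 libraries with any count (484 of 685 listed) were expressed as CPM, counts normalised to library size, here with trimmed mean of M values (TMM) factors, and 287 had a mean of 10 CPM or more. For each tissue a ratio was formed as the mean CPM at S5 plus 5 over the mean CPM at S1 plus 5. The rising members (20 tags) had a lamina joint ratio of 2 or more and a blade ratio under 2, and the falling members (26 tags) had a lamina joint ratio of 0.5 or less and a blade ratio over 0.5. A further 68 tags had a ratio of 2 or more in both tissues, and 54 had a ratio of 0.5 or less in both. The S1 and S5 values are therefore a description with no test, and tests were made on the libraries of S2, S3 and S4, which entered the choice only through the scaling and the 10 CPM minimum.

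The libraries came from the first complete leaf of Oryza sativa seedlings that were germinated and grown in water under a light and dark cycle, with no treatment, mutation or cultivar named in the labels. Lamina joints shorter than 1 mm and blades shorter than 10 mm were cut on days 4, 5, 6, 7 and 9 after germination, and no label ties these days to the stages S1 to S5. With 2 libraries for every stage of either tissue there were 10 groups, and nothing says whether these came from separate plants, so p-values measure the spread between libraries, which may be technical. The pieces are cut tissue, not sorted cells, so fewer cells of a type and less RNA per cell cannot be told apart. The files name tags by number only, without miRNA names or sequences, so members are described here by number, abundance and course, and the tissue labels could not be checked against marker genes.

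Total counts per library lay between 194799 and 1169330. After TMM scaling 3 counts, the limit that a count of 0 allows, stood for 3.63 CPM in the first blade S4 library, the lowest value. They stood for 18.9 CPM in the first lamina joint S5 library, the highest value. These limits are for counting error only. Of the 46 members, 37 were detected in all 20 libraries, and 18 had fewer than 10 counts summed over lamina joint S1 or over lamina joint S5. Replicates of each group differed by more than sampling noise (chi-square per degree of freedom of at least 37.7), so none was taken for a repeated library. This value was highest in lamina joint S1, at 247, with blade S3 next at 102. Every lamina joint ratio rests on the lamina joint S1 libraries. The second blade S3 library stood apart in 3 abundant falling members, named here after their values were seen. Tag_019 had 7963 CPM in the first and 243 CPM in the second blade S3 library, tag_032 had 11332 and 2096 CPM, and tag_056 had 8048 and 3088 CPM. The part of this library in the S3 values of these tags was not tested.

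The rising members had a median of 71.5 CPM over all libraries and ran from 16.5 to 56941 CPM, and the falling members had a median of 74.6 CPM and ran from 11.7 to 15970 CPM, against a median of 112 CPM for the 287 tags. Together the rising members took 4.77% ± 0.850 (SD, n = 2) of the counts at the first stage of the lamina joint and 8.73% ± 0.190 (SD, n = 2) at the last. Their share of the blade was larger at S1, at 14.1% ± 1.03 (SD, n = 2), and 9.11% ± 0.837 (SD, n = 2) at S5. The falling members took 7.87% ± 2.46 (SD, n = 2) of the lamina joint at S1 but 1.37% ± 0.432 (SD, n = 2) at S5, and 4.34% ± 0.130 and 2.75% ± 0.168 (SD, n = 2) at the same stages of the blade. These shares are of raw counts. On the CPM scale the direction in the blade was the opposite one: the summed level of the rising members went from 128668 ± 3153 CPM to 146544 ± 13580 CPM (SD, n = 2) between S1 and S5, and that of the falling members from 39821 ± 3124 CPM to 44304 ± 2737 CPM (SD, n = 2). Most of the rising sum came from 2 tags, tag_010 with blade means of 68517 and 95752 CPM and tag_026 with 56133 and 45778 CPM. In the lamina joint both scales had the same direction, with 42545 ± 13244 and 119977 ± 12849 CPM for the rising members and 67814 ± 12207 and 19177 ± 8360.4 CPM for the falling members (SD, n = 2).

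**Figure D1:**
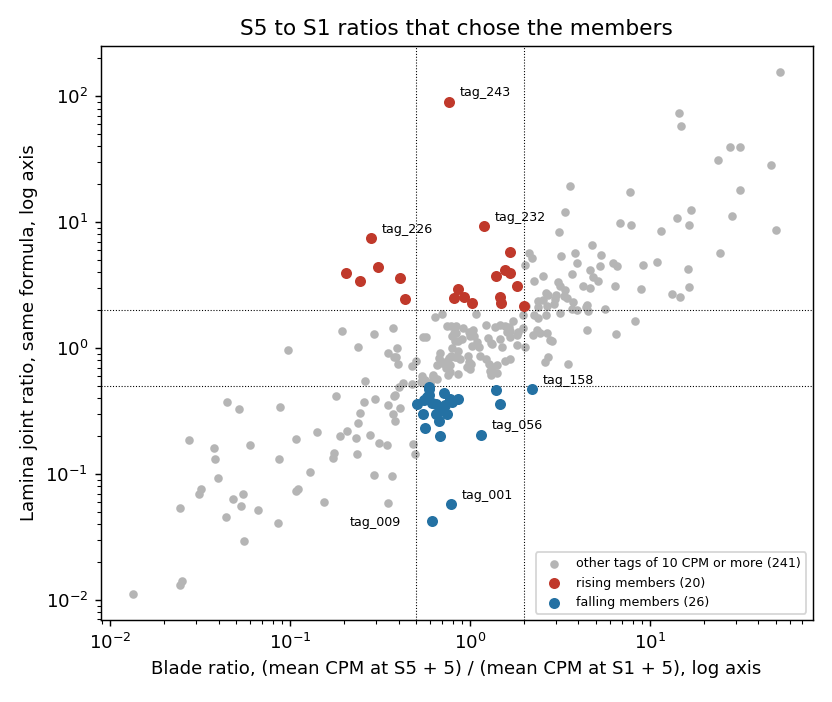
S5 to S1 ratios in the blade (x) and the lamina joint (y), both on log axes, for the 287 tags of 10 CPM or more; dotted lines mark 0.5 and 2. The 20 rising members (red) lie above 2 on the y axis and below 2 on the x axis, the 26 falling members (blue) lie below 0.5 on the y axis and above 0.5 on the x axis, and tag_243 stands far above the other rising members at 90.8.

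The rising members fell into 14 with a blade ratio between 0.5 and 2 and 6 with a blade ratio of 0.5 or less. Their lamina joint ratios ran from 2.18 to 90.8 with a median of 3.52, and their blade ratios from 0.204 to 1.98 with a median of 0.975. In all 20, both S5 libraries of the lamina joint lay above both S1 libraries, a separation seen in 35.5% of the 287 tags and largely fixed by the choice of members. Their mean was highest at S4 in 11 members, at S5 in 7 and at S3 in 2, and 3 members had a higher mean at every step. The largest step of the lamina joint course lay between S2 and S3 for 11, between S3 and S4 for 6 and between S1 and S2 for 3. In the blade the highest mean was at S3 for 12 of the 20. These stages and steps were not counted over the 287 tags and include the S1 and S5 values of the rule, so they are a description only.

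Tag_243 had the steepest course. Its lamina joint libraries held 0 and 3.89 CPM at S1 (0 and 1 counts), 5.73 and 3.83 CPM at S2, 28.5 and 27.4 CPM at S3, 341 and 315 CPM at S4, and 642 and 609 CPM at S5. The blade libraries held 9.67 and 0 CPM at S1, 8.23 and 0 CPM at S2, 7.69 and 14.4 CPM at S3, 6.06 and 9.76 CPM at S4, and 3.56 and 1.38 CPM at S5. The lamina joint values of successive stages did not overlap from S2 on, while no blade library rose above 14.4 CPM or 9 counts.

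Tag_232, the next by ratio in the class with a level blade, started low in the lamina joint, with 3.08 and 0 CPM at S1 and 9.55 and 1.28 CPM at S2. It reached 36.7 and 37.9 CPM at S3, 54.5 and 40.6 CPM at S4, and 50.4 and 61.2 CPM at S5. Its blade libraries were at 13.8 and 50.6 CPM at S1 and 57.6 and 43.9 CPM at S2, and ran from 11.01 to 82.7 CPM at the later stages. The lamina joint libraries thus lay below those of the blade at S1 and S2 and overlapped the blade range by S5.

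Tag_226 had the highest lamina joint ratio, 7.49, among the 6 rising members with a falling blade ratio. The lamina joint held 13.9 and 105 CPM at S1, 42.0 and 40.8 CPM at S2, 536 and 339.5 CPM at S3, 182 and 201 CPM at S4, and 472 and 483 CPM at S5. The blade held 473 and 891 CPM at S1, 346 and 675 CPM at S2, 890.3 and 1014 CPM at S3, 122 and 139 CPM at S4, and 165 and 212 CPM at S5. In CPM the order of the tissues turned over, with all blade libraries above all lamina joint libraries at S1 to S3 and the reverse at S4 and S5. The fitted differences, lamina joint minus blade, were -1.10 ± 0.58 at S3 and 0.34 ± 0.59 at S4 (log2, SE). Neither passed the threshold (edgeR adjusted p = 0.332 and 0.792). The S1 and S5 values chose the tag, so this turn is a description only. Tag_256, next in this class, went from 7.70 and 7.78 CPM at S1 to 44.1 and 58.0 CPM at S5 in the lamina joint, after 75.4 and 185 CPM at S3. In the blade it went from 30.4 and 16.9 CPM to 3.56 and 4.13 CPM, the latter from 5 counts.

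The most abundant rising members were tag_026 and tag_010. Tag_010 had 7417 and 12216 CPM at lamina joint S1, 4434 and 3947 CPM at S2, 12285 and 11375 CPM at S3, 46793 and 21117 CPM at S4, and 30823 and 42894 CPM at S5. Its blade libraries ran from 31085 to 106108 CPM and lay above both lamina joint libraries at each stage, and the log2 ratio of mean CPM plus 5, lamina joint over blade, was -2.80 at S1, -3.53 at S2, -2.19 at S3, -0.94 at S4 and -1.38 at S5. Tag_026 had 24516 and 37687 CPM at lamina joint S1 and 74175 and 80593 CPM at S5. In the blade it had 52658 and 59608 CPM at S1, reached 74069 and 120137 CPM at S3 and had 45944 and 45613 CPM at S5.

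**Figure D2:**
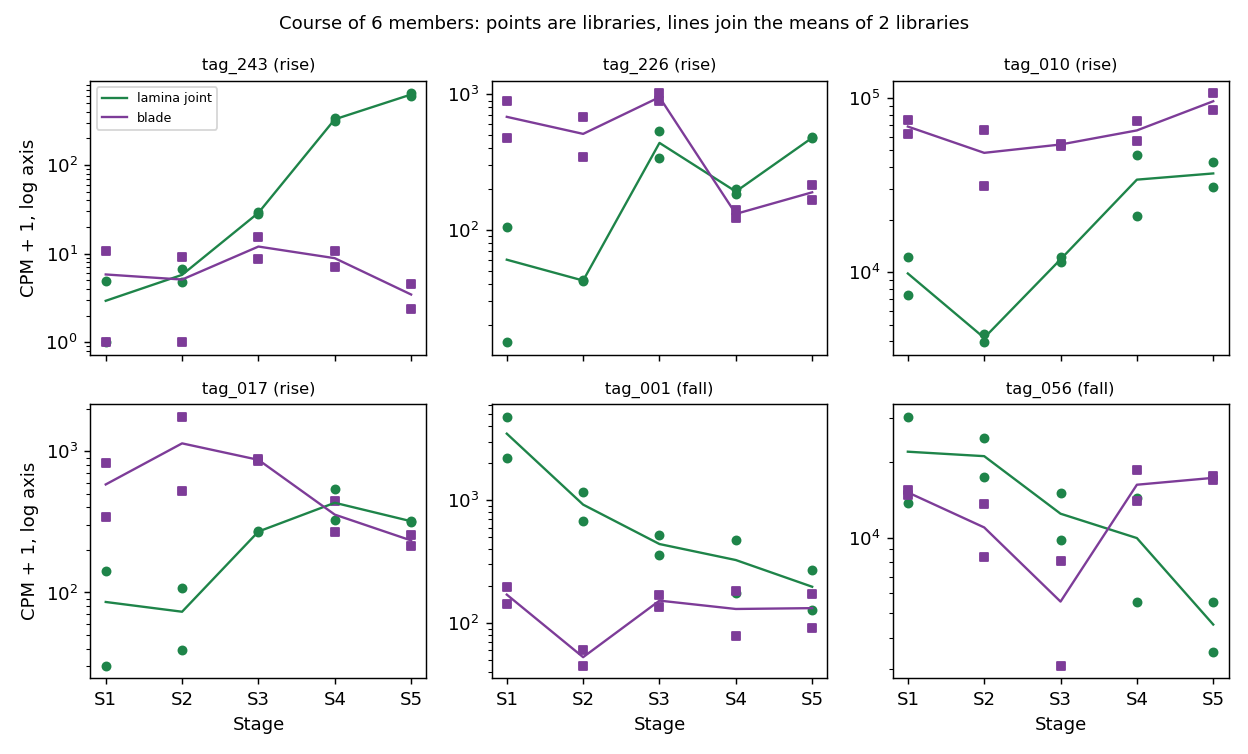
CPM plus 1 (log axis) by stage for 6 members; green circles are lamina joint libraries, purple squares blade libraries, and lines join the means of 2 libraries. Tag_243 climbs from 1.94 to 625 CPM in the lamina joint and stays under 15 CPM in the blade, tag_226 and tag_017 start far below the blade and end above it, tag_010 ends below it, and tag_001 and tag_056 are lower in the lamina joint at S5 than at S1.

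The falling members had lamina joint ratios from 0.0423 to 0.491 with a median of 0.363, and blade ratios from 0.506 to 2.21 with a median of 0.673. Both S5 libraries lay below both S1 libraries of the lamina joint in all 26, against 34.8% of the 287 tags, and this too is largely fixed by the choice. In the blade the replicates of 15 also lay lower at S5 without overlap, against 39.4% of the 287 tags. Those of 4 lay higher, against 39%, and those of 7 overlapped. The rule excluded blade ratios of 0.5 or less, so these blade counts are a description and nothing is concluded from them. The lamina joint mean was highest at S1 in 15 members, at S2 in 8 and at S3 in 3, and lowest at S5 in 23. The largest step lay between S4 and S5 for 14 of the 26. These stages and steps, too, were not counted over the 287 tags and include the values of the rule.

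Tag_009 and tag_001 had the lowest lamina joint ratios, 0.0423 and 0.0578, and stood apart from the other falling members. Tag_001 had 4769 and 2197 CPM at lamina joint S1, 679.9 and 1161 CPM at S2, 355 and 524 CPM at S3, 475 and 175 CPM at S4, and 126 and 267 CPM at S5. Its blade libraries were at 142 and 197 CPM at S1, 59.7 and 43.9 CPM at S2, 135 and 168 CPM at S3, 181 and 78.1 CPM at S4, and 90.7 and 172 CPM at S5. Tag_009 had 4327 and 2295 CPM at lamina joint S1, 838 and 743 CPM at S2, 271 and 138 CPM at S3, 139 and 282 CPM at S4, and 132 and 139 CPM at S5, against blade values between 19.2 and 219 CPM. Both tags were high in the lamina joint at S1 and S2 and overlapped the blade by S5.

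The most abundant falling members, tag_032 and tag_056, followed like courses. Tag_056 had 30355 and 13752 CPM at lamina joint S1, 17440.0 and 24898 CPM at S2, 15139 and 9822 CPM at S3, 14386 and 5569 CPM at S4, and 3494 and 5527 CPM at S5. Its blade libraries had 14834 and 15521 CPM at S1 and 17012 and 17681 CPM at S5. Tag_032 had 25714 and 27707 CPM at lamina joint S1 and 6289 and 12874 CPM at S5, against 12360.3 and 14825 CPM and then 18639.5 and 21181 CPM in the blade. At S5 all blade libraries of both tags lay above all lamina joint libraries. Tag_158 was the only falling member with a blade ratio of 2 or more, from few counts. It had 20.02 and 11.7 CPM at lamina joint S1 and 0 and 9.66 CPM at S5, and 2.76 and 5.62 CPM at blade S1 and 19.6 and 11.01 CPM at blade S5. Tag_673, named after its values were seen, was the only member with a whole group at 0, with no count in either lamina joint S5 library. Its lamina joint S1 libraries had 19 and 1 counts, or 29.3 and 3.89 CPM. A count of 0 allowed up to 18.9 and 9.66 CPM in the S5 libraries, above the second S1 value.

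**Figure D3:**
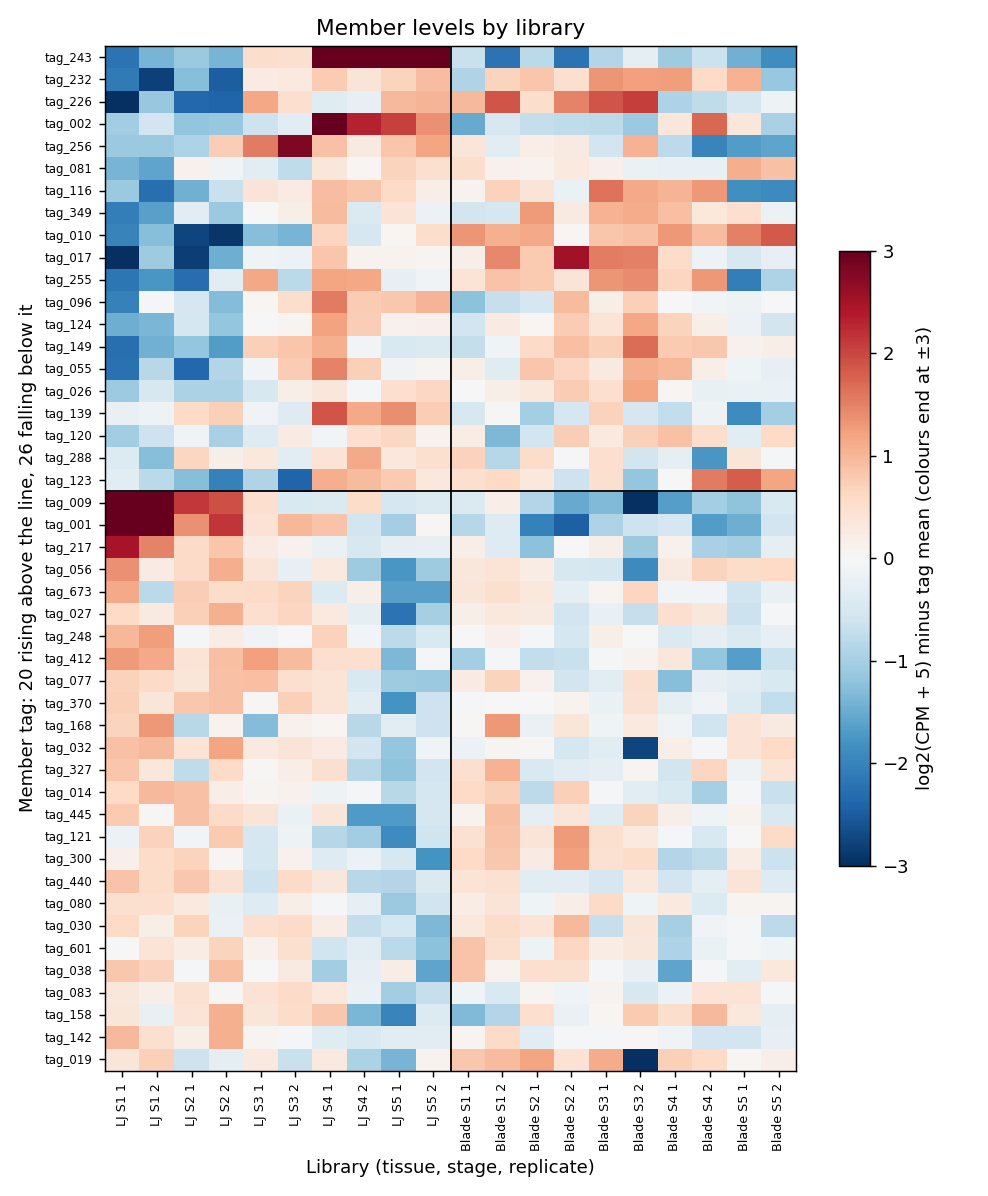
Log2 of CPM plus 5 minus the tag's mean over 20 libraries, by library (columns) and member (rows); red is above and blue below the tag's mean, and colours end at 3 on either side. All 20 rising members lie below their own mean in both S1 libraries of the lamina joint, tag_009 and tag_001 are the deepest red at S1 and S2 of that tissue, and the second blade S3 library is dark blue for tag_019, with 243 CPM, and for tag_032, with 2096 CPM.

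Members near the thresholds had ratios close to those of tags just outside them. Tag_123 was the last rising member, with a lamina joint ratio of 2.18 and a blade ratio of 1.98, and tag_102 lay next outside with a lamina joint ratio of 1.86. Tag_019 was the last falling member with 0.491, and tag_659 lay next outside with 0.530. By the blade threshold, tag_225 was kept out of the rising members with a blade ratio of 2.03, tag_005 out of the falling members with 0.491, and tag_014 was just inside with 0.506. Membership depended on the scaling: with total counts in place of TMM factors, 13 of the 20 rising and 5 of the 26 falling members met the rule, and with upper quartile factors 16 and 23 did. With DESeq2 size factors 19 and 26 met it. Leaving out single libraries gave 20 to 36 rising and 19 to 44 falling tags, with 36 rising tags without the second lamina joint S1 library, 19 of them members, and 44 falling tags without the second lamina joint S5 library, 23 of them members. Under all 3 other scalings and all 20 omissions 9 rising and 3 falling members were kept.

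Whether the members also differed between the tissues at the middle stages was tested with the quasi-likelihood test of edgeR, fitted to 299 tags and all 20 libraries, with p-values adjusted over the 299 tags. At S2, 9 of the 20 rising members were lower in the lamina joint, which is 45%, where 12.4% of all tested tags were lower, and the fitted difference was negative for 19 of the 20 and for 155 of all 299 tested tags. The median difference of the rising members was -1.67 on the log2 scale, against -0.09 over all tested tags. Of the falling members 2 of 26 were higher, 7.69% against 3.01% of all tested tags. With upper quartile factors or total counts the lower rising members were 7, without the first blade S2 library they were 5. Of the 2 higher falling members 1 was left without the second blade S2 library.

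The rising members that led at S2 were tag_010 and tag_226. Tag_010 differed by -3.71 ± 0.43 (log2, SE; edgeR adjusted p = 0.00015) and tag_226 differed by -3.71 ± 0.65 (edgeR adjusted p = 0.00216). In both, each lamina joint library at S2 lay below each blade library. The 2 falling members were tag_001, with a difference of 3.99 ± 0.64 (log2, SE; edgeR adjusted p = 0.00113), and tag_009, with 3.08 ± 0.66 (edgeR adjusted p = 0.00646). Tag_009 lost its call without the second blade S2 library, with an edgeR adjusted p of 0.0875. Tag_001 and tag_009 were also the members that stood highest over the blade at S1. The S1 values entered the choice of members and were not tested, so no conclusion on a lasting tissue gap is drawn from them.

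At S3 the only member past the threshold was tag_010, with a difference of -2.16 ± 0.41 (log2, SE; edgeR adjusted p = 0.0158), in a comparison where 2.34% of all tested tags were lower. Tag_010 lost the call without either lamina joint S3 library, where 1 library was left in that group. Its difference lay between -2.14 and -1.97 with single libraries left out. Without the first blade S3 library some falling members passed as well. For blade S3 that fit rests on the second library alone, which stood apart in 3 abundant falling members, so nothing is read from it. The median difference of the rising members was -0.70, against -0.07 over all tested tags. It was negative for 17 of the 20 and for 161 of all 299 tested tags. No falling member passed at S3 in this edgeR fit or in limma, 6 had an unadjusted edgeR p under 0.05, DESeq2 called 1, and edgeR with no filter on low counts called 2.

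At S4 tag_243 was the only member past the threshold, with a difference of 5.15 ± 0.80 (log2, SE; edgeR adjusted p = 0.00409), where 0.669% of all tested tags were higher and 0.334% lower. It did not pass without the first blade S4 library (edgeR adjusted p = 0.0855). The median difference of the rising members at S4 was 0.11 and that of the falling members -0.24, against -0.01 over all tested tags. No falling member passed at S4 by edgeR, limma or DESeq2, and 1 had an unadjusted p under 0.05 in edgeR.

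Averaged over S2 to S4, 9 rising members were lower and 1 was higher in the lamina joint, that is 45% and 5%, where 12% and 6.02% of all tested tags were lower and higher. Of the falling members 3 of 26 were higher. Tag_010 differed by -2.36 ± 0.24 (log2, SE; edgeR adjusted p = 1.24e-05) and tag_026 by -0.86 ± 0.16 (edgeR adjusted p = 0.0023), while tag_001 was higher by 2.20 ± 0.34 (edgeR adjusted p = 0.000536) and tag_009 by 2.19 ± 0.37 (edgeR adjusted p = 0.00116). Over all members the split was 4 higher and 9 lower, and it became 7 and 8 with total counts and 6 and 8 with upper quartile factors or with TMM factors over all tags with any count. The lower rising members were 4 without the second lamina joint S3 library, and 5 without either lamina joint S4 library, the first blade S2 or the first blade S4 library.

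**Figure D4:**
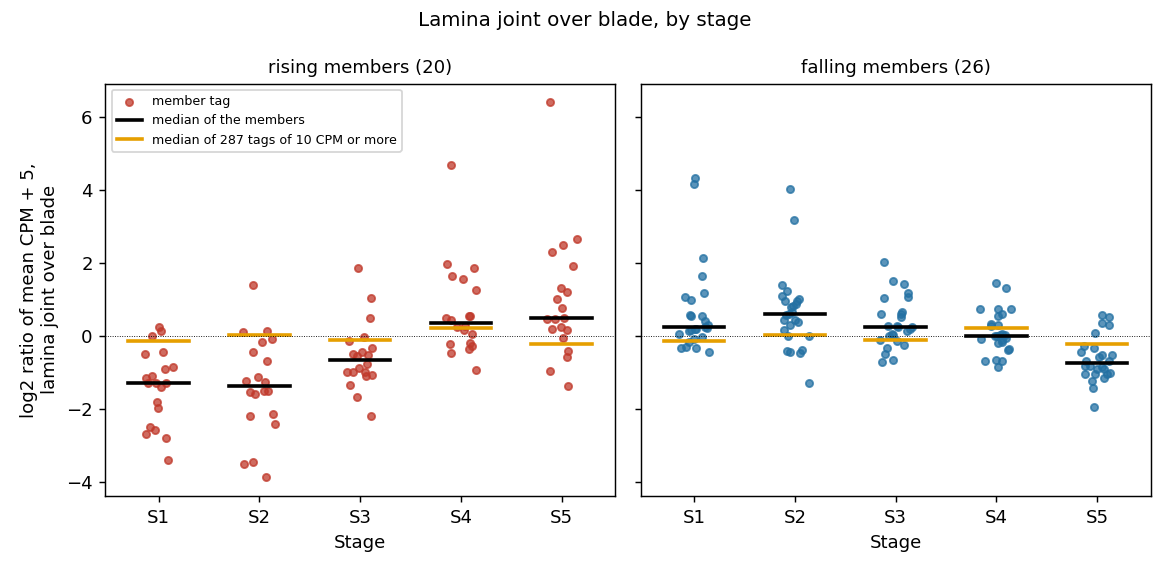
Log2 ratio of mean CPM plus 5, lamina joint over blade, by stage for the 20 rising members (left) and the 26 falling members (right); points are tags, black lines the median of the members and orange lines the median of the 287 tags of 10 CPM or more. The median of the rising members lies at -1.30 at S1, -1.39 at S2, -0.67 at S3, 0.35 at S4 and 0.47 at S5, and that of the falling members at 0.23, 0.59, 0.24, 0.01 and -0.76.

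The tissue ratio of mean CPM plus 5 describes all 5 stages. For the 20 rising members the lamina joint mean was below the blade mean in 17 at each of S1, S2 and S3. It was below in 6 at S4 and 5 at S5. Over the 287 tags it was below in 171 at S1, 139 at S2, 165 at S3, 116 at S4 and 173 at S5. For 14 rising members both lamina joint libraries lay below both blade libraries at S1, against 30.3% of the 287 tags. Of the falling members the lamina joint mean was below the blade mean in 7 of 26 at S1 and 21 at S5, and the replicates of 11 lay higher without overlap at S1, against 14.6%. At S5 the replicates of 12 rising members lay higher in the lamina joint without overlap, against 17.4% of the 287 tags, and those of 15 falling members lay lower, against 36.9%. The S1 and S5 counts rest on the values that chose the members, and nothing is read from them.

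The change between S2 and S4 was then tested in either tissue by itself. Of the rising members 14 of 20 were higher in the lamina joint at S4 than at S2, which is 70%, where 25.4% of all tested tags were higher, and the fitted change was positive for 20 of the 20. Their median change was 2.29 on the log2 scale, against 0.08 over all tested tags. Tag_243 rose by 6.06 ± 0.85 (log2, SE; edgeR adjusted p = 0.000129), from 6 counts at S2 to 274 counts at S4, and tag_010 rose by 2.96 ± 0.42 (edgeR adjusted p = 0.000133). Without the second lamina joint S2 library 8 rising members passed, and without the first lamina joint S4 library 9.

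Of the falling members 4 of 26 were lower at S4 than at S2 in the lamina joint, which is 15.4%, where 15.7% of all tested tags were lower, so their share was close to that of all tested tags. Their median change was -0.88 and 24 of the 26 fitted changes were negative, while 142 of the 299 tested tags were negative. Tag_142 fell by 1.15 ± 0.37 (log2, SE; edgeR adjusted p = 0.0223), with 153 and 288 CPM at S2 and 105 and 96.5 CPM at S4. Tag_121 fell by 1.63 ± 0.53 (edgeR adjusted p = 0.0237), with 34.4 and 67.6 CPM at S2 and 18.2 and 15.2 CPM at S4. Without the second lamina joint S4 library 1 falling member passed. Without the second lamina joint S2 library none did, where tag_142 had a change of -0.73 ± 0.41 (edgeR adjusted p = 0.208). With total counts 10 falling members passed as lower and 13 rising members as higher. That scaling moved the median of all tested tags by -0.41 in this comparison.

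In the blade the same step showed few calls. Of the rising members 1 of 20 was higher and 1 lower at S4, where 9.7% and 13% of all tested tags were higher and lower, and their median change was 0.14, against 0.13 over all tested tags. Tag_002 rose in the blade by 2.21 ± 0.61 (log2, SE; edgeR adjusted p = 0.0175), with 20.6 and 19.96 CPM at S2 and 48.5 and 133 CPM at S4. It rose in the lamina joint too, by 4.27 ± 0.62 (edgeR adjusted p = 0.000148), from 13.4 and 14.03 CPM to 352 and 203 CPM, and the difference between the tissues, 2.06 ± 0.85, did not pass (edgeR adjusted p = 0.196). Tag_226 fell in the blade by 1.84 ± 0.60 (log2, SE; edgeR adjusted p = 0.0388), and tag_300, a falling member, by 1.67 ± 0.51 (edgeR adjusted p = 0.0322). With single libraries left out the blade call was kept in 6 of 20 fits for tag_226 (edgeR adjusted p up to 0.224), in 15 for tag_300 (up to 0.184) and in 17 for tag_002 (up to 0.138), with no change of sign. The 3 blade calls were 7 with total counts, all lower, 1 without either lamina joint S4 library, without the first blade S2 library or without either blade S4 library, and 0 without the second blade S2 library. DESeq2 and limma each called 3.

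The difference between the tissues in this change was tested directly. It was positive for all 20 rising members, with a median of 1.97 on the log2 scale, against 0.20 over all tested tags, where 164 of 299 were positive. Of the 20, 3 passed the threshold, which is 15%, against 1.67% of all tested tags, and 11 had an unadjusted p under 0.05. No falling member passed in this edgeR fit or in limma, 3 had an unadjusted edgeR p under 0.05, DESeq2 called 1, and edgeR called 1 with no filter on low counts or without either lamina joint S1 library. Their median was -0.71, with 19 of 26 negative. Tag_226 had a difference of 4.05 ± 0.86 (log2, SE; edgeR adjusted p = 0.0408). Its changes were 2.22 ± 0.62 in the lamina joint and -1.84 ± 0.60 in the blade, and the blade call was the one kept in 6 of 20 fits. Tag_010 had 2.48 ± 0.56 (edgeR adjusted p = 0.0408).

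The third member past the threshold, tag_017, is named after its values were seen, with a difference of 4.03 ± 0.95 (log2, SE; edgeR adjusted p = 0.0457). In the lamina joint it had 38.2 and 106 CPM at S2 and 539 and 322 CPM at S4, and in the blade 523 and 1749 CPM at S2 and 442 and 267 CPM at S4. The 3 calls rested close to the threshold. No member passed without the first or second library of lamina joint S2, S3 or S5 or of blade S4 or S5, the first of lamina joint S4 or the first of blade S1, 1 passed without the second lamina joint S4 library, and 5 to 8 passed without the first or second lamina joint S1 or the second blade S1 library. With each of the 20 libraries left out in turn the fitted difference stayed positive for all 3 tags, between 3.69 and 4.32 for tag_226, between 1.62 and 3.10 for tag_010 and between 3.22 and 4.84 for tag_017.

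**Figure D5:**
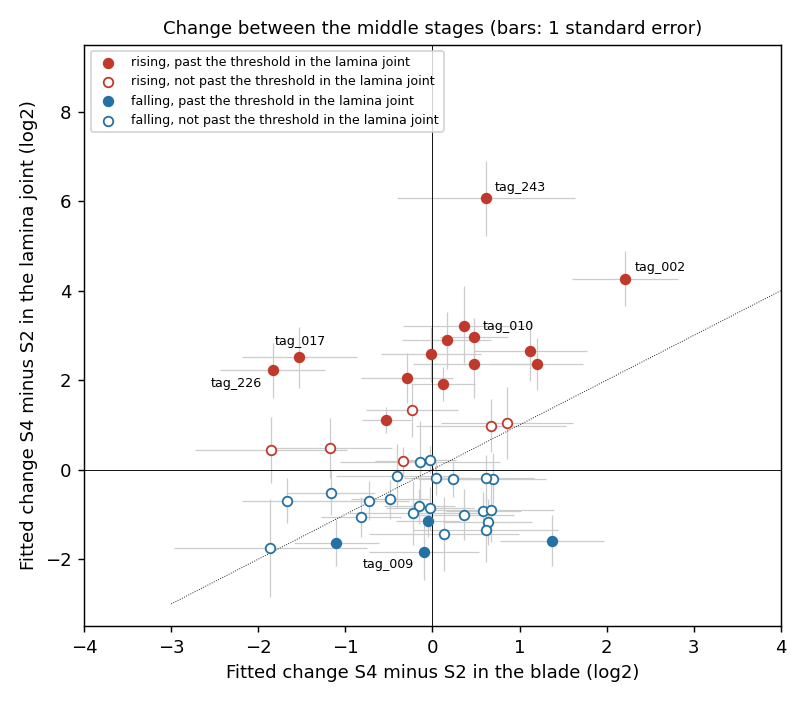
Fitted change from S2 to S4 in the blade (x) and the lamina joint (y) on the log2 scale for the 46 members, with bars of 1 standard error; filled points passed the threshold in the lamina joint and the dotted line marks equal change. All 20 rising members (red) lie above the dotted line, 14 of them filled, and 4 of the 26 falling members (blue) are filled.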

How the data were processed

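The authors deposited, for each of 20 libraries, whole-number counts per numbered tag, not normalised. IRGSP-1.0, a rice genome build, and the tool CASAVA appear in the submitters' processing notes. No aligner, counting tool, source of miRNA annotation or handling of multiply matching reads is stated in the labels used here. Near-identical mature miRNAs can share or divide reads. Groups and replicate numbers came from the sample titles.

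Members followed the rule in the report, on CPM with TMM factors over 484 tags (edgeR 4.0.16, R 4.3.3). Tests used edgeR's quasi-likelihood F test with 1 mean for each of 10 groups over all 20 libraries (10 residual degrees of freedom), filterByExpr (minimum count 10, total 15), which left 299 tags with all 46 members, TMM factors over these, two-sided tests and Benjamini-Hochberg adjustment at 0.05. Printed CPM use the members' factors, and tests the other set. Alternatives were other scalings and filters, DESeq2 1.42.0, limma 3.58.1 with voom, a replicate block, S2 to S4 alone, and each library left out. Code was tested on simulated data. Named tags were the 2 most extreme by ratio in each class of blade ratio, the 2 most abundant per direction, up to 2 per direction and test by p, and those next to the thresholds. Members and lists were chosen with earlier results of these data known. Figures used matplotlib 3.10.9.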

Additional observations from a re-analysis of the deposited data

Results flagged for a closer look

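By the test of the difference itself, 3 rising members passed, close to the threshold, for a change from S2 to S4 that differed between the tissues. On the log2 scale, with positive values for a higher change in the lamina joint, the differences were 4.05 ± 0.86 (SE; edgeR adjusted p = 0.0408) for tag_226, 2.48 ± 0.56 (edgeR adjusted p = 0.0408) for tag_010 and 4.03 ± 0.95 (edgeR adjusted p = 0.0457) for tag_017. In tag_226 and tag_017 the lamina joint libraries at S2 all lay below those of the blade and at S4 the means were 191 against 130.5 CPM and 431 against 355 CPM. The fitted tissue differences of these 2 tags at S4 were 0.34 ± 0.59 and 0.02 ± 0.64 (log2, SE). Neither passed the threshold (edgeR adjusted p = 0.792 and 0.999). In tag_010 the lamina joint mean rose from 4191 to 33955 CPM while the blade mean was 48397 and 65113 CPM. The calls were not stable. Over 10 other scalings, filters, tests and designs the members past the threshold numbered 0 to 9, with 0 under DESeq2 size factors. With each library left out in turn all 3 differences stayed positive. They lay between 3.69 and 4.32 for tag_226, 1.62 and 3.10 for tag_010 and 3.22 and 4.84 for tag_017. Groups of 2 libraries are too small to look for single outlying libraries.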

How the results depend on the processing

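Other scalings, pseudocounts (1 or 10 CPM) and minimums (20 CPM or none) gave 18 to 28 rising and 19 to 38 falling tags. These numbers stayed within 1.5 times of 20 and 26. With single libraries left out they ran from 20 to 36 and from 19 to 44. The tags behind these numbers were not all the same. Of the members, 10 rising and 4 falling were kept under all 3 other scalings, and 9 and 3 under these and all 20 omissions. With single libraries left out, members called ran from 8 to 15 for the tissues over S2 to S4 (13 in the report), 7 to 12 for the tissues at S2 alone (11), 0 to 4 for S3 (1), 0 to 1 for S4 (1), 8 to 20 for the lamina joint change (18), 0 to 3 for the blade change (3) and 0 to 8 for the difference (3). Without a filter on low counts there were 4 at S3, 3 at S4, 5 for the blade change and 9 for the difference. The DESeq2 test gave 2 at S3 and 7 for the difference; total counts gave 7 for the blade change; DESeq2 size factors, or tags of 10 CPM or more alone, gave 0 for the difference. The cause was not tested. The 12 libraries of S2 to S4 alone moved no count by over 1.5 times. TMM over all tags with any count was chosen after seeing the data and moved none either. No named tag reversed its direction under any alternative run.

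The replicate numbers were not shown to pair the libraries: between groups of S2 to S4 the replicate differences correlated from -0.26 to 0.32, over 0.1 in 5 of 15 pairs. A replicate block gave 14, 11, 1, 1, 18, 3 and 4 members in the order above. Depth limits tags of few counts: 18 members had under 10 counts over a lamina joint group of S1 or S5.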
